A study of Mus musculus with 15 samples.

Results

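Prox1, Sox7, Sox17, Sox18, Nr2f2, Tbx1 and Hhex encode transcription factors that set up or maintain the identity of lymphatic endothelium. These 7 genes were chosen by name from a table of raw counts for 21839 genes in 15 libraries, and all 7 were found. Each library holds RNA of lymphatic endothelial cells from mice of strain C57bl/6 aged 10 weeks into which a mouse melanoma line described as lymphangiogenic had been transplanted. The cells came from the tumor (Tumor, 5 libraries), from the lymph node that drains it (TdLN, 5 libraries) or from a node that does not (NdLN, 5 libraries). Sorting kept cells without CD45, a protein of leukocytes, that carried CD31 (encoded by Pecam1) and gp38 (encoded by Pdpn). The labels name no mouse for any library and no mouse without a tumor is among the groups, so a p-value speaks only of the spread among these libraries, which may be technical, and a change shared by all 3 groups would not be seen.

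Lymphatic vessels of the embryo arise in large part from veins. In mouse, SOX18 and the nuclear receptor NR2F2 switch on Prox1 in a subset of venous endothelial cells, and PROX1, a homeodomain protein, then represses blood endothelial genes, induces lymphatic ones and is needed throughout life to keep the cells lymphatic. SOX7 and SOX17 are the closest relatives of SOX18 and can replace it in part, SOX17 being best known in arteries. HHEX, a homeodomain protein, and TBX1, a T-box protein, have each been tied in mouse to the VEGF-C receptor gene Flt4 in lymphatic growth.

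The libraries held between 23830337 (Tumor 1) and 37437282 (NdLN 2) counts, and levels are given as TMM-scaled CPM, counts brought to a common library size. All 9 lymphatic endothelial markers of a fixed list, among them Prox1, Flt4, Lyve1 and Pdpn, were detected in every group. Together they took 0.348% to 0.482% of counts in Tumor libraries, 0.649% to 0.835% in TdLN libraries and 0.702% to 0.885% in NdLN libraries. They did not move together. By the test given below, 2 were higher and 5 lower in Tumor against TdLN, beside 31.9% and 30.1% of all genes. Scaled to the pan-endothelial genes described below, their log2 fold changes in that comparison ran from -7.20 for Stab2 to 4.73 for Ccl21a. Pdpn, a gene of the sort, averaged 116 ± 46.4 CPM in Tumor, 120.1 ± 15.4 in TdLN and 124 ± 20.7 in NdLN libraries (SD, n = 5 each). Pecam1, the other, averaged 276 ± 86.7 CPM in Tumor, 1179 ± 87.1 in TdLN and 1596 ± 84.7 in NdLN libraries. Pigment cell genes took 2.66% to 4.14% of Tumor counts, against 0.00117% to 0.00325% of TdLN and 0.00168% to 0.00361% of NdLN counts, with all 8 tested members higher in Tumor and none at 0 in a whole group. Fibroblast genes took 0.142% to 1.07% of Tumor counts, against 0.0117% to 0.0368% of TdLN and 0.0236% to 0.0546% of NdLN counts. Macrophage genes took 0.0177% to 0.0312% of Tumor, 0.00718% to 0.016% of TdLN and 0.00325% to 0.00997% of NdLN counts, and leukocyte genes at most 0.00647% in any library. A list of 12 pan-endothelial genes took 0.375% ± 0.0706 of counts in Tumor, 0.960% ± 0.0604 in TdLN and 1.10% ± 0.0609 in NdLN libraries. A list of 12 blood endothelial genes took 0.093% ± 0.0331 of counts in Tumor, 0.616% ± 0.183 in TdLN and 0.498% ± 0.147 in NdLN libraries. The part of RNA from other cells in the levels below was not tested, but a scaling to the pan-endothelial genes is given. Emcn is in both of these lists, and the part of blood endothelial RNA in that scale was not tested either. In bulk RNA, fewer cells of a type and less RNA per cell cannot be told apart.

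Of the 7 factors, 5 were lower in Tumor than in TdLN libraries and 6 were lower in Tumor than in NdLN libraries by edgeR's quasi-likelihood test at a Benjamini-Hochberg adjusted p under 0.05, and none was higher. The call of Sox17, 1 of the 6, was lost under several alternatives. All 7 factors passed the low-count filter, as did 13887 genes in all, of which 62% and 66.5% were called in the same comparisons, 30.1% and 32.5% lower and 31.9% and 34% higher. The median log2 fold change over the 7 genes was -1.34 against TdLN and -1.86 against NdLN, beside 0.04 over all genes in each comparison. Over the 12 pan-endothelial genes, all called lower in both comparisons, the medians were close to these, at -1.26 and -1.81. In Tumor libraries 4 factors lay below every TdLN library (22.5% of all genes did) and 6 lay below every NdLN library (27%), while 0 lay above every TdLN (24.1%) or every NdLN library (27.7%). Between the nodes 1 factor, Sox7, was lower in TdLN than in NdLN libraries and 0 were higher, where 3.49% of genes were called, 1.64% lower and 1.84% higher, and the median over the 7 was -0.42 beside -0.01 over all genes. Tumor and TdLN libraries enter 2 comparisons each, as do NdLN libraries, so the 3 sets of values are not independent. Scaled to the endothelial genes, Sox7 and Sox18 turned to higher in Tumor against TdLN and Sox18 and Nr2f2 in Tumor against NdLN, as set out further on. On that scale 75% and 77.1% of all genes were called higher in these comparisons, and 8.17% and 7.94% lower.

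**Figure D1:**
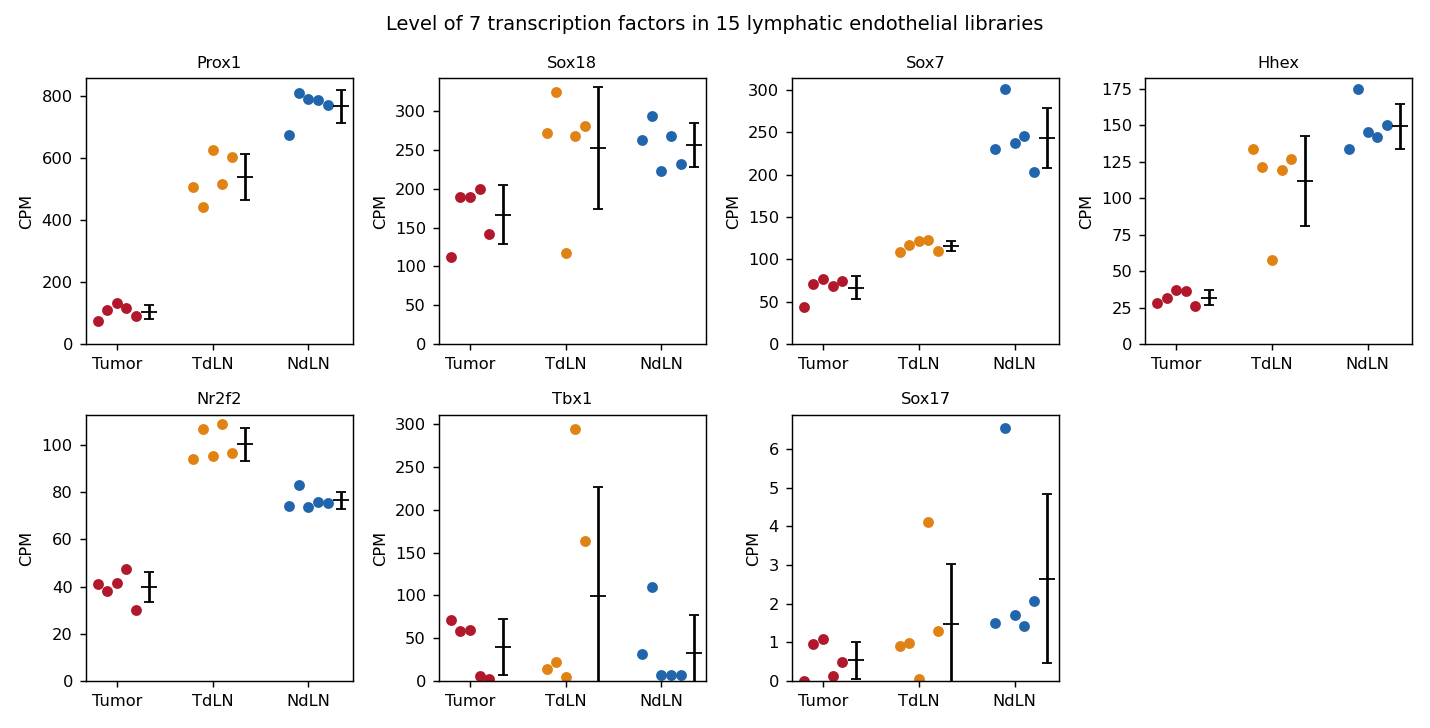
Level of each factor in CPM (y axis) in the 5 Tumor, 5 TdLN and 5 NdLN libraries; points are libraries and the black bar to their right is the mean ± SD, which is drawn only above 0. Prox1, Sox7, Nr2f2 and Hhex lie lowest in all Tumor libraries on this scale, while Tbx1 spreads widely within every group. On the endothelial scale Sox7 and Nr2f2 are not lower than in TdLN, and Hhex, at -0.35 in log2, is not called.

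Prox1 had the largest fall of the 7. Its levels were 73.5, 112, 132, 115 and 90.9 CPM in Tumor libraries 1 to 5, against 507, 441, 625, 517 and 602 CPM in TdLN and 674, 809.9, 788, 785 and 772 CPM in NdLN libraries. The 3 groups did not overlap, and Tumor libraries stood far below both nodes. The log2 fold change was -2.36 ± 0.15 (SE, adjusted p = 3.3e-09), a 5.15-fold lower level, in Tumor against TdLN and -2.87 ± 0.15 (adjusted p = 4.07e-10), a 7.32-fold lower level, in Tumor against NdLN. Between the nodes Prox1 was at 539 ± 74.9 CPM in TdLN and 766 ± 52.9 CPM in NdLN libraries (-0.51 ± 0.14, adjusted p = 0.0625), a difference that missed the threshold although every TdLN library was below every NdLN library, as held for 4.95% of genes. DESeq2, limma voom and a fit of the 2 node groups alone did call it, with adjusted p between 0.00865 and 0.0259. Without single libraries the Prox1 value stayed between -2.49 and -2.26 against TdLN and between -2.99 and -2.77 against NdLN.

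Prox1 lies on chromosome 1 from 190118035 to 190170714 on the minus strand (GRCm38). Annotated antisense genes overlap it, of which Prox1os shares 133 exon bases, and the low-input kit does not mark strand, so reads of the antisense RNAs cannot be told apart from those of Prox1. The promoters of Prox1 and Tbx1 are shown because they belong to the factor with the largest fall and the factor with the widest spread between libraries. Both come from RefSeq for GRCm38.p6, cover 300 bases around a start annotated by RefSeq, most of them before it, and are written on the minus strand; the Prox1 window is chr1:190170778-190171077 and the Tbx1 window is chr16:18590622-18590921. The RefSeq start used for Prox1 lies upstream of the GENCODE bounds given above. RefSeq lists 2 windows for each of these genes, and the one nearest to the GENCODE start is shown. Capitals mark matches to 4 motifs searched on both strands: AACAAT for SOX factors, AGGTCA for nuclear receptors, CGGAAG for ETS factors and AGATAA for GATA factors.
Prox1: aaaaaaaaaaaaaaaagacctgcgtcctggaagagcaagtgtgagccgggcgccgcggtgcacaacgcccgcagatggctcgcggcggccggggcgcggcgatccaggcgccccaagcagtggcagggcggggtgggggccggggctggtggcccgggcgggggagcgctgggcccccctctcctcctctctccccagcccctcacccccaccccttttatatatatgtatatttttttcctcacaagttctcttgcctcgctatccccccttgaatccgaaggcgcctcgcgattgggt
Tbx1: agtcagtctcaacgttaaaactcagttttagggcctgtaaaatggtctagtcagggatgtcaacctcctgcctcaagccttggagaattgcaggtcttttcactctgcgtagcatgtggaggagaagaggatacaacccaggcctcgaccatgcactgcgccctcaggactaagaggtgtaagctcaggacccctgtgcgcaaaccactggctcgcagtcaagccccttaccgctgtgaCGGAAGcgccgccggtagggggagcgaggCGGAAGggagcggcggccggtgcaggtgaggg

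The Prox1 window shown held none of the 4 motifs, was 64.3% G or C and had 25 CpG sites. The Tbx1 window shown held CGGAAG at positions -11 and 18 from the start, was 58.3% G or C and had 16 CpG sites. The promoter table also held Nr2f2 (49.7% G or C, 2 CpG sites) and Hhex (75.7%, 37 CpG sites), neither with a match. Among 32851 windows of the same length, 10.7% held the SOX, 16.3% the nuclear receptor, 16.9% the ETS and 11.2% the GATA letters. A match is not a bound site, and no match says only that these letters are not in this window.

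Sox18, Sox7 and Sox17 make up the SOXF family. Sox18, on chromosome 2 from 181669836 to 181671640 on the minus strand, had the smallest fold change of the factors called. It was at 112, 189, 189.8, 199 and 142 CPM in Tumor libraries, against 272, 324, 118, 268 and 281 CPM in TdLN and 263, 294, 223, 268 and 232 CPM in NdLN libraries. All Tumor libraries were below all NdLN libraries, but TdLN 3 lay among the Tumor libraries. The log2 fold change was -0.60 ± 0.22 (adjusted p = 0.0287) in Tumor against TdLN and -0.62 ± 0.22 (adjusted p = 0.0224) in Tumor against NdLN, both of which turn to positive when scaled to endothelial genes. Both calls depended on single libraries. The call against TdLN was lost without any 1 of Tumor 1, Tumor 5, TdLN 1 or TdLN 2 (adjusted p up to 0.0760) and in a fit of the 2 groups alone (adjusted p = 0.0531), and that against NdLN without Tumor 1 or Tumor 5 (up to 0.0565). Between the nodes Sox18 averaged 252 ± 78.6 CPM in TdLN and 256 ± 28.5 CPM in NdLN libraries (-0.02 ± 0.22, adjusted p = 0.975), and the value was 0.16 without TdLN 3 and 0.03 without NdLN 2. Without TdLN 3 the Tumor against TdLN value was -0.79.

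Sox7, on chromosome 14 from 63943673 to 63950732, was lowest in Tumor, intermediate in TdLN and highest in NdLN libraries on the scale of all genes. Levels were 43.4, 70.7, 77.3, 68.6 and 74.1 CPM in Tumor, 109, 118, 121, 122 and 109.6 CPM in TdLN and 230.3, 301, 237, 245 and 203 CPM in NdLN libraries. No 2 groups overlapped. Sox7 fell by 0.80 ± 0.14 on the log2 scale in Tumor against TdLN (adjusted p = 0.000159) and by 1.86 ± 0.14 in Tumor against NdLN (adjusted p = 2.62e-08). Scaled to endothelial genes the first value turned to 0.68 and the second was -0.14 (adjusted p = 0.330, no longer called), with 19.1 ± 3.44 Sox7 counts per 1000 endothelial counts in Tumor, 11.9 ± 0.642 in TdLN and 21 ± 2.14 in NdLN libraries. It was the only factor called between the nodes, 2.10-fold lower in TdLN than in NdLN libraries (-1.07 ± 0.14, adjusted p = 0.00168). Without single libraries that value stayed between -1.13 and -0.98 and was called each time.

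Sox17, on chromosome 1 from 4490931 to 4497354, was close to absent. Its raw counts were 0, 36, 39, 4 and 17 in Tumor, 31, 33, 2, 146 and 41 in TdLN and 47, 226, 60, 44 and 73 in NdLN libraries. The 0 in Tumor 1 allows a level of up to 0.123 CPM, counting error only. All Tumor libraries lay below all NdLN libraries, at 0.530 ± 0.486 CPM against 2.65 ± 2.19 CPM, while Tumor and TdLN libraries overlapped. The difference was called in Tumor against NdLN (-2.30 ± 0.96, adjusted p = 0.0456) and not in Tumor against TdLN (-1.45 ± 0.94, adjusted p = 0.194) or TdLN against NdLN (-0.85 ± 0.91, adjusted p = 0.686). The call was lost in 6 of the 10 fits that left out a library of its groups (without Tumor 1, 4 or 5 or NdLN 2, 3 or 5, adjusted p up to 0.149), without the low-count filter (adjusted p = 0.0516), with the replicate block (adjusted p = 0.0796) and on the endothelial scale (-0.61, adjusted p = 0.530). Gm37587 shares 804 exon bases with Sox17 on the other strand. Sox17 also stands in the list of 12 blood endothelial genes, which took 0.0546% to 0.141% of counts in Tumor, 0.360% to 0.800% in TdLN and 0.368% to 0.668% in NdLN libraries. The part of blood endothelial RNA in the Sox17 counts was not tested.

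Nr2f2, on chromosome 7 from 70351944 to 70366735, encodes the venous nuclear receptor that partners PROX1. It was at 41.3, 38.1, 41.3, 47.5 and 30.1 CPM in Tumor, 94.1, 107, 95.3, 109 and 96.8 CPM in TdLN and 74.4, 83.1, 73.9, 75.9 and 75.6 CPM in NdLN libraries. The groups did not overlap, and here the draining node was the highest. Nr2f2 fell by 1.34 ± 0.11 on the log2 scale in Tumor against TdLN (adjusted p = 5.56e-08) and by 0.95 ± 0.11 in Tumor against NdLN (adjusted p = 1.7e-06). Scaled to endothelial genes these values were 0.14 (adjusted p = 0.302, not called) and 0.78 (adjusted p = 2.81e-05, called higher). Between the nodes it was 1.31-fold higher in TdLN than in NdLN libraries (0.39 ± 0.11, adjusted p = 0.0592). That difference missed the threshold, although all TdLN libraries were above all NdLN libraries, as held for 2.87% of genes. DESeq2, limma voom, the fit of the 2 node groups alone and a stricter low-count filter each called it, with adjusted p between 0.00964 and 0.0384. B130024G19Rik shares 643 exon bases with Nr2f2 on the other strand.

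Hhex, on chromosome 19 from 37434810 to 37440731, came next to Prox1 in the size of its fall against TdLN. It was at 27.9, 31.8, 37.4, 36.4 and 26.2 CPM in Tumor, 134, 121, 58, 119 and 127 CPM in TdLN and 134, 175, 145, 142 and 150.4 CPM in NdLN libraries. All Tumor libraries were below all node libraries, and TdLN 3 was low among TdLN libraries, as for Sox18. Hhex fell by 1.81 ± 0.19 on the log2 scale in Tumor against TdLN (adjusted p = 9.75e-07) and by 2.23 ± 0.19 in Tumor against NdLN (adjusted p = 9.77e-08). Scaled to endothelial genes these values were -0.35 (adjusted p = 0.0963, no longer called) and -0.50 (adjusted p = 0.0199). Without TdLN 3 the Tumor against TdLN value was -1.98 on the scale of all genes. Between the nodes the difference did not pass (-0.42 ± 0.18, adjusted p = 0.255), with 112 ± 30.6 CPM in TdLN and 149 ± 15.4 CPM in NdLN libraries.

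Tbx1, on chromosome 16 from 18580979 to 18590671, varied widely within each group. It was at 71.2, 57.9, 59.8, 5.92 and 2.00 CPM in Tumor libraries 1 to 5. It was at 13.9, 22.5, 4.26, 294 and 164 CPM in TdLN and at 31.3, 110.2, 6.70, 6.74 and 6.55 CPM in NdLN libraries. The highest library exceeded the lowest 35.6-fold in Tumor, 69.1-fold in TdLN and 16.8-fold in NdLN libraries, with counts of 69 or more in every library. No comparison passed. The log2 fold change was -1.34 ± 1.17 in Tumor against TdLN (adjusted p = 0.335), 0.28 ± 1.15 in Tumor against NdLN (adjusted p = 0.839) and 1.63 ± 1.18 in TdLN against NdLN (adjusted p = 0.523). Each standard error exceeds 1 log2 unit, and the Tumor against NdLN value was -0.04 without Tumor 1 and 1.61 without NdLN 2.

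Within TdLN libraries Tbx1 stood in the same order as genes rich in G and C, and within Tumor and NdLN libraries in part. The longest Tbx1 transcript is 62.8% G or C, above 99.0% of the genes tested, while that of Sox18 is 60.9% (above 97.2%) and those of the other 5 factors lie between 45.3% and 52.6%. The 34 tested genes above 66%, which include none of the 7 factors, had median log2 deviations from their group mean of 0.33, 0.80, 0.18, -0.46 and -0.95 in Tumor libraries 1 to 5. In TdLN libraries the values were -0.36, 0.22, -1.46, 1.10 and 0.43, and in NdLN libraries 0.31, 0.79, -0.07, -0.50 and -0.46. In the 203 genes between 62% and 66%, Tbx1 among them, the values were -0.0042, 0.31, 0.21, 0.015 and -0.19 in Tumor, -0.12, 0.15, -0.82, 0.48 and 0.27 in TdLN and 0.25, 0.43, -0.17, -0.20 and -0.20 in NdLN libraries. The 5 TdLN libraries stood in the same order for Tbx1 and for both sets, while Tumor 1, the highest Tumor library for Tbx1, was highest in neither. TdLN 3, the low library for Sox18 and Hhex, was the lowest of all 15 in both sets, neither of which holds Sox18 or Hhex. In the genes between 58% and 62%, Sox18 among them, TdLN 3 was at -0.0999. In the genes between 50% and 54%, where Hhex lies at 51.7%, TdLN 3 was at -0.0035. With an offset for transcript GC in each library, chosen after seeing the data, Tbx1 again passed in no comparison (-1.06 ± 1.06 in Tumor against TdLN, adjusted p = 0.403; 0.60 ± 1.06 in Tumor against NdLN, adjusted p = 0.630; 1.66 ± 1.08 in TdLN against NdLN, adjusted p = 0.464). With the same offset Sox18 stayed called, at -0.42 ± 0.15 against TdLN (adjusted p = 0.0246) and -0.44 ± 0.15 against NdLN (adjusted p = 0.0174), and Prox1 was at -2.40 ± 0.16 and -2.91 ± 0.16.

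**Figure D2:**
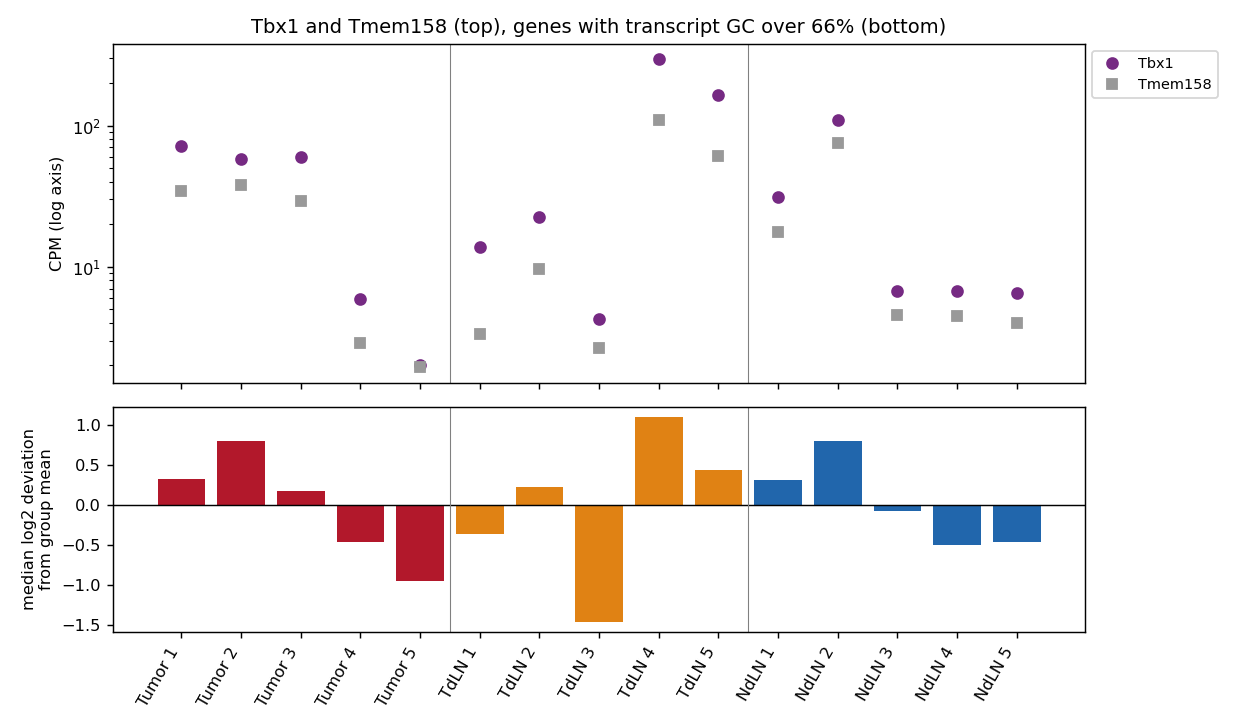
Top, CPM of Tbx1 and of Tmem158, the gene of nearest profile, on a log axis in each of the 15 libraries; bottom, the median log2 deviation from the group mean of 34 genes whose longest transcript is over 66% G or C, as bars from 0. TdLN 4 is highest and TdLN 3 lowest among TdLN libraries in both panels, with Tbx1 at 294 and 4.26 CPM.

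Per exon length (FPKM, from the union of annotated exons), the order of the factors differed between tumor and nodes. In Tumor libraries Sox18 led at 103 ± 23.3 FPKM, above every value of the next gene, Sox7, at 20.3 ± 4.10. Prox1 came next at 12.5 ± 2.71 FPKM in Tumor libraries, its range overlapping those of Sox7 and of Tbx1 (11.2 ± 9.31), although Sox7 was above Prox1 within each Tumor library. Hhex (6.32 ± 0.986 FPKM) and Nr2f2 (4.60 ± 0.737 FPKM) followed with overlapping ranges, and Sox17 was below all at 0.111 ± 0.102 FPKM. In TdLN libraries Sox18 (156 ± 48.5 FPKM) and Prox1 (64.2 ± 8.93 FPKM) overlapped only because of TdLN 3, and Prox1 stood above Sox7 (35.2 ± 1.92 FPKM) in every library. Hhex was at 22.1 ± 6.06, Nr2f2 at 11.6 ± 0.798 and Sox17 at 0.308 ± 0.324 FPKM in TdLN libraries. In NdLN libraries Sox18 was at 158 ± 17.6, Prox1 at 91.3 ± 6.31 and Sox7 at 73.7 ± 10.9 FPKM. The ranges of Prox1 and Sox7 overlapped there, although Prox1 was above Sox7 within each NdLN library. Hhex was at 29.5 ± 3.05, Nr2f2 at 8.88 ± 0.434 and Sox17 at 0.555 ± 0.460 FPKM there. With the longest transcript as length, Nr2f2 came to 9.39, 23.8 and 18.1 FPKM in Tumor, TdLN and NdLN libraries, which put it above Hhex (8.17 FPKM) in Tumor, and Tbx1 (15.7 FPKM) above Prox1 (13.2 FPKM) there. By the same length Tbx1 (39.7 FPKM) passed Sox7 (35.2 FPKM) in TdLN and Nr2f2 (18.1 FPKM) passed Tbx1 (12.9 FPKM) in NdLN libraries, so these places in the order depend on the length taken.

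Because all 12 pan-endothelial genes were themselves lower in Tumor than in node libraries, with log2 fold changes from -2.59 to -0.64 against TdLN, the factors were also scaled to the summed counts of these genes. This scaling moved the median of all genes to 1.53 in Tumor against TdLN, 1.78 in Tumor against NdLN and 0.24 in TdLN against NdLN, and called 75.0%, 77.1% and 3.14% of genes higher and 8.17%, 7.94% and 0.425% lower. Prox1 stayed lower, at -0.91 ± 0.12 against TdLN (adjusted p = 3.94e-06) and -1.17 ± 0.13 against NdLN (adjusted p = 1.71e-07). Per 1000 counts of the endothelial genes there were 29.6 ± 2.17 counts of Prox1 in Tumor, 55.5 ± 7.68 in TdLN and 66.6 ± 6.29 in NdLN libraries, with no overlap between Tumor and the nodes.

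Sox18 was called higher on this scale, at 0.85 ± 0.20 against TdLN (adjusted p = 0.00102) and 1.09 ± 0.20 against NdLN (adjusted p = 0.000103), yet both values lay below the shift of all genes. Sox7 was likewise higher against TdLN (0.68 ± 0.13, adjusted p = 0.000164) and at -0.14 ± 0.13 against NdLN (adjusted p = 0.330), where it lost its call. Nr2f2 was at 0.14 ± 0.13 against TdLN (adjusted p = 0.302) and called higher against NdLN (0.78 ± 0.13, adjusted p = 2.81e-05). Hhex was at -0.35 ± 0.19 against TdLN (adjusted p = 0.0963) and called lower against NdLN (-0.50 ± 0.19, adjusted p = 0.0199), a call lost when each endothelial gene had equal weight (adjusted p = 0.0762). Between the nodes Sox7 stayed lower (-0.82 ± 0.13, adjusted p = 0.00385) and Nr2f2 was called higher (0.64 ± 0.13, adjusted p = 0.0122) in TdLN libraries. Of the 12 endothelial genes 1, Kdr, fell more than Prox1 in Tumor against either node, and none fell less than Sox18. With the geometric mean of the 12 genes as scale, chosen after seeing the data, 2 factors (Sox7 and Sox18) were called higher and 1 (Prox1) lower in Tumor against TdLN, where 74.2% of genes were called higher and 8.22% lower. In Tumor against NdLN 2 (Sox18 and Nr2f2) were higher and 1 (Prox1) lower, beside 78.1% and 7.41% of genes. Between the nodes 1 (Nr2f2) was higher and 1 (Sox7) lower, beside 5.87% and 0.31%.

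**Figure D3:**
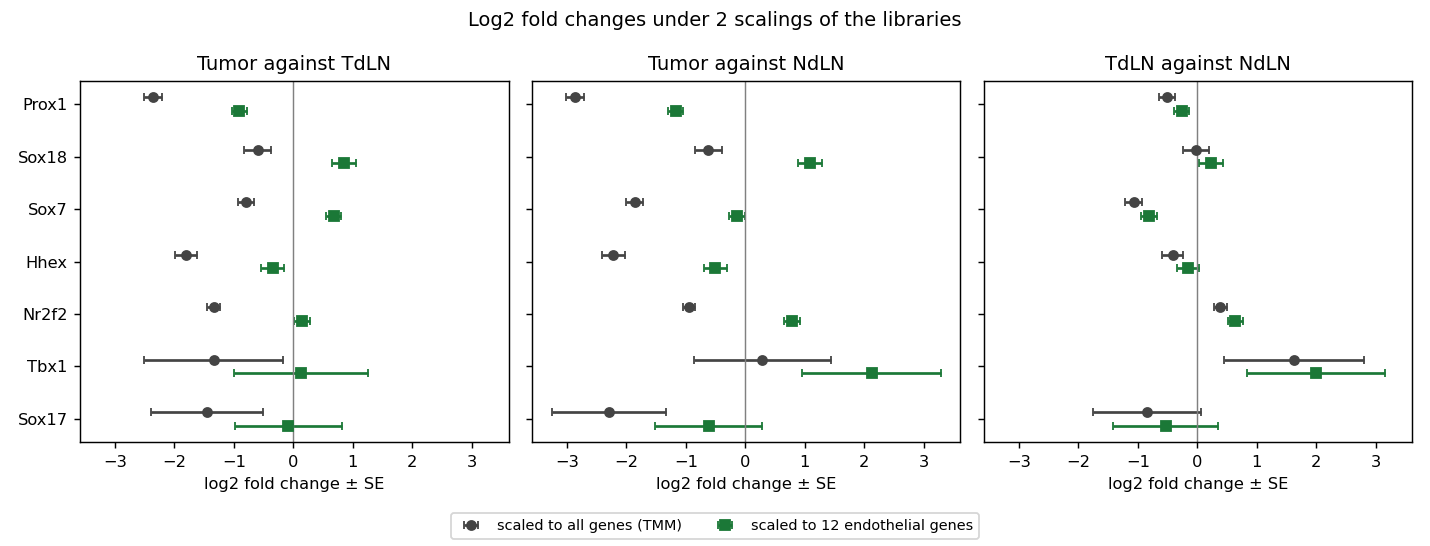
Log2 fold change ± SE (x axis) of each factor in the 3 comparisons with libraries scaled to all genes (TMM, grey circles) and to 12 endothelial genes (green squares). Prox1 is below 0 in both Tumor comparisons under either scaling, whereas Sox18 is at -0.60 under the first scaling and 0.85 under the other in Tumor against TdLN.

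Ratios of raw counts within a library do not depend on any scaling. There were 1.59 ± 0.12 counts of Sox18 per count of Prox1 in Tumor, 0.488 ± 0.196 in TdLN and 0.336 ± 0.0436 in NdLN libraries (SD, n = 5 each). The lowest Tumor library, at 1.44, was above the highest node library, at 0.734. Sox7 per Prox1 was 0.644 ± 0.0979 in Tumor, 0.219 ± 0.0338 in TdLN and 0.318 ± 0.0411 in NdLN libraries, and Nr2f2 per Prox1 was 0.392 ± 0.102 in Tumor, 0.190 ± 0.0367 in TdLN and 0.1002 ± 0.00645 in NdLN libraries. In both ratios Tumor libraries again lay above all node libraries. Hhex per Prox1 changed least, at 0.310 ± 0.0411 in Tumor, 0.215 ± 0.0728 in TdLN and 0.195 ± 0.0137 in NdLN libraries, with Tumor still above the nodes. Between the nodes Sox18 per Sox7 was 2.19 ± 0.715 in TdLN and 1.06 ± 0.0950 in NdLN libraries, 4 of 5 TdLN libraries lying above the NdLN range and TdLN 3, at 0.969, within it. These ratios show unequal change of the 2 genes and do not say which of them changed.

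**Figure D4:**
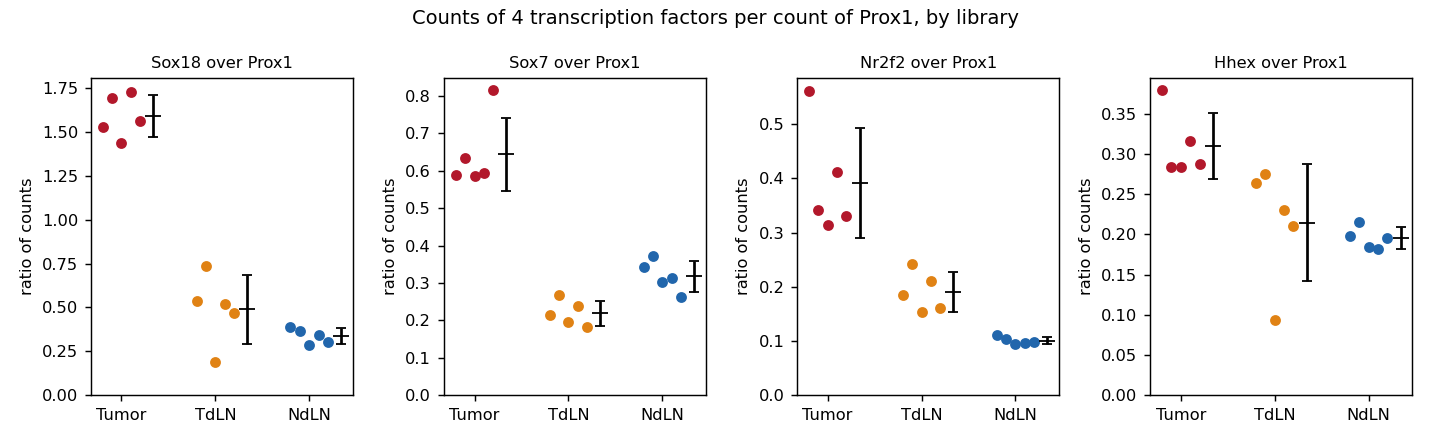
Counts of Sox18, Sox7, Nr2f2 and Hhex per count of Prox1 (y axes) in the 5 Tumor, 5 TdLN and 5 NdLN libraries, with the mean ± SD as the black bar. Tumor libraries lie above all node libraries in each panel, from 1.44 to 1.73 for Sox18.

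Other transcription factors of lymphatic vessels and valves, taken from a list of 10 that does not hold the 7 factors, fell as well. In Tumor against TdLN 9 of 10 were lower and 0 higher, with a median log2 fold change of -2.16. Of all genes 30.1% were called lower and 31.9% higher there. In Tumor against NdLN 8 were lower (32.5% of all genes were), and between the nodes 0 were called (3.49% of all genes), with a median of -0.09. Meox2, a homeobox gene of endothelium, was at 6.46 ± 1.55 CPM in Tumor libraries, against 115 in TdLN and 116 in NdLN libraries (-4.15 ± 0.18, adjusted p = 8.06e-11, in Tumor against TdLN). Hoxd10 was at 8.60 CPM in Tumor, 80.7 in TdLN and 103 in NdLN libraries (-3.23 ± 0.20, adjusted p = 2.66e-09), and Gata2, a zinc finger factor needed for lymphatic valves, at 13.7 CPM in Tumor, 94.3 in TdLN and 134 in NdLN libraries (-2.79 ± 0.20, adjusted p = 2e-08). Meox1 fell less (-1.56 ± 0.15, adjusted p = 3.16e-07). Scaled to the endothelial genes, 4 of the 10 stayed lower in Tumor against TdLN, among them Meox2 (-2.67), Hoxd10 (-1.76) and Gata2 (-1.33). Meox1 was then at -0.08 (adjusted p = 0.558), and 1, Nr2f1, turned to higher. On that scale 8.17% of all genes were called lower and 75% higher.

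Of 12 transcription factors shared by all endothelium, 9 were lower and 1 higher in Tumor against TdLN, with a median of -1.73. Among all genes 30.1% were called lower and 31.9% higher in that comparison. Between the nodes 0 of the 12 were called, beside 3.49% of all genes. Epas1, which encodes the hypoxia-regulated factor HIF-2 alpha, was at 7.24 CPM in Tumor, 86.7 in TdLN and 139 in NdLN libraries (-3.58 ± 0.25, adjusted p = 1.35e-08, in Tumor against TdLN). The ETS factor genes Erg (-1.92 ± 0.14, adjusted p = 2.13e-08) and Fli1 (-1.57 ± 0.14, adjusted p = 1.95e-07) fell too. Mef2c was the 1 that rose, at 81.6 ± 9.80 CPM in Tumor, 38.7 in TdLN and 50.1 in NdLN libraries (1.08 ± 0.12, adjusted p = 1.28e-06). On the endothelial scale 4 of the 12 were called higher and 3 lower in Tumor against TdLN, where 75% of all genes were called higher and 8.17% lower. Epas1 (-2.10) and Erg (-0.43) were still lower there and Fli1 was at -0.08 (adjusted p = 0.583).

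The 9 genes described elsewhere as induced by PROX1 did not all move one way. In Tumor against TdLN 4 were lower, 1 was higher and 4 were not called, with a median of -0.46, where 30.1% of all genes were called lower and 31.9% higher. Fgfr3, a fibroblast growth factor receptor gene, was at 1.31, 0.131, 2.11, 0.805 and 0.0290 CPM in Tumor libraries, while TdLN libraries ran from 26.4 to 34.4 CPM and NdLN libraries from 26.6 to 59.7 CPM (-5.10 ± 0.65, adjusted p = 7.48e-06, in Tumor against TdLN). The valve factor gene Foxc2, at 3.81, 8.69, 8.93, 3.76 and 0.493 CPM in Tumor libraries, fell with a large standard error (-3.32 ± 1.10, adjusted p = 0.0157). Its transcript is 62% G or C, and its 2 highest TdLN libraries, TdLN 4 and TdLN 5, were those of Tbx1.

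Lyve1, a hyaluronan receptor gene, was at 858 ± 138 CPM in Tumor, 1680.4 ± 296 in TdLN and 977 CPM in NdLN libraries. It was lower in Tumor than in TdLN libraries (-0.97 ± 0.18, adjusted p = 0.000284), a direction that turned on the endothelial scale (0.51, adjusted p = 0.0252), and higher in TdLN than in NdLN libraries (0.78 ± 0.18, adjusted p = 0.0288). Angpt2, a ligand of the TIE2 receptor, rose under both scalings, at 498 ± 137 CPM in Tumor, 148 in TdLN and 202 in NdLN libraries (1.75 ± 0.19 in Tumor against TdLN, adjusted p = 1.06e-06). Flt4, the gene of the VEGF-C receptor, was not called in Tumor against TdLN (-0.46 ± 0.26, adjusted p = 0.146) and was called higher on the endothelial scale (0.97, adjusted p = 0.000627). The Flt4 value lies below the shift of all genes, 1.53. On that scale 6 of the 9 were higher and 1, Fgfr3, lower, where 75% of all genes were called higher and 8.17% lower.

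**Figure D5:**
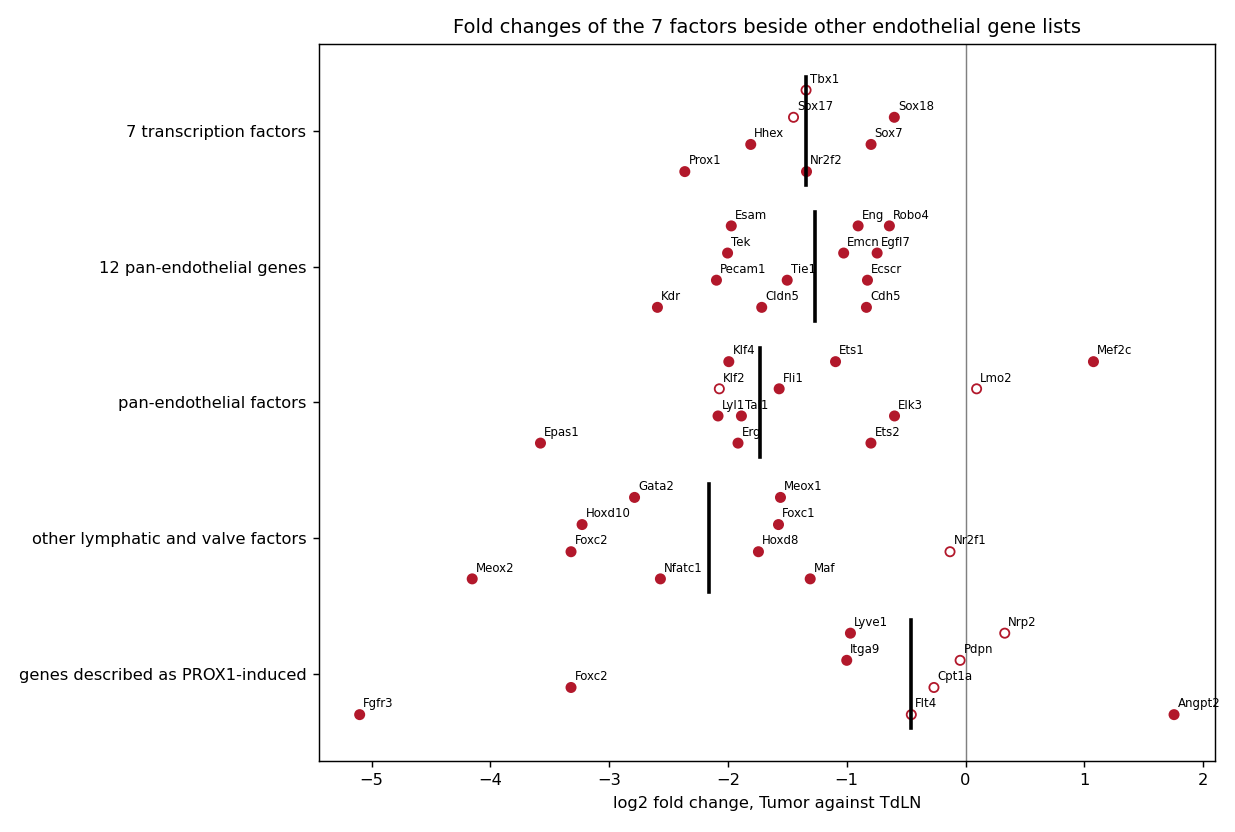
Log2 fold change in Tumor against TdLN (x axis) of the 7 factors and of 4 other lists with libraries scaled to all genes; each point is a gene, filled where called at an adjusted p under 0.05, and the black bar is the median of the list. The median was -1.34 for the 7 factors and -1.26 for the endothelial genes. It was -2.16 for other lymphatic and valve factors and -0.46 for the PROX1-induced genes. On the endothelial scale (not drawn) Sox7 and Sox18 are called higher, as are 75% of all genes, while Nr2f2 (0.14) and Tbx1 (0.13) also lie right of 0 but are not called.

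Some relatives of the 7 factors were higher in Tumor libraries. Of 16 other SOX genes measured, 9 were tested, of which 5 were higher and 0 lower in Tumor against TdLN. Among all genes 31.9% were called higher and 30.1% lower in that comparison. Sox10, the neural crest and melanocyte factor, ran from 52.5 to 262 CPM in Tumor libraries, with at most 0.173 CPM in a TdLN and 0.128 CPM in an NdLN library. Sox6 averaged 24.1 CPM, Sox11 23.7 CPM and Sox9 25.0 CPM in Tumor libraries, against 0.0127, 0.143 and 3.45 CPM in TdLN libraries. Of 16 other T-box genes 9 were tested, with 4 higher and 2 lower in Tumor against TdLN, beside the same shares of all genes. In Tumor against NdLN 3 of these 9 were higher and 3 lower, where 34% of all genes were called higher and 32.5% lower. Tbx2 ran from 13.1 to 90.2 CPM and Tbx4 from 10.2 to 22.8 CPM in Tumor libraries, with at most 0.768 and 0.394 CPM in a TdLN library. Tbx21, a T-box factor of lymphocytes, had 0 counts in all Tumor libraries and averaged 0.243 CPM in TdLN libraries, and Mga was lower (-1.33 ± 0.15, adjusted p = 2.09e-06) but at 0.17 (adjusted p = 0.391) on the endothelial scale. The pigment cell genes that took 3.53% ± 0.583 of Tumor counts were highest in the same group as Sox10 and Tbx2, and their part in these levels was not tested.

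Genes of arterial and venous identity were read because PROX1, NR2F2 and the SOXF proteins are known to act on them. Of 15 arterial and Notch genes 8 were lower and 1, Notch4, higher in Tumor against TdLN, with a median of -1.43, where 30.1% of all genes were called lower and 31.9% higher. Bmx, a kinase gene of arterial endothelium, was at 1.62 CPM in Tumor, 63.4 in TdLN and 139 in NdLN libraries (-5.28 ± 0.29, adjusted p = 9.71e-10, in Tumor against TdLN), and Gja4, a gap junction gene of arteries and lymphatic valves, at 7.42 CPM in Tumor, 362 in TdLN and 295 in NdLN libraries (-5.61 ± 0.40, adjusted p = 1.51e-08). Bmx (-1.13 ± 0.24, adjusted p = 0.0192) and Hey1, a Notch target gene (-1.33 ± 0.30, adjusted p = 0.0230), were also lower in TdLN than in NdLN libraries, and on the endothelial scale Hey1 (adjusted p = 0.0482) kept its call and Bmx (adjusted p = 0.0633) did not. Of 5 venous genes 3 were lower in Tumor against TdLN, among them Flrt2 (-2.08 ± 0.21, adjusted p = 5.78e-07) and Ephb4 (-1.61 ± 0.32, adjusted p = 0.000436). Scaled to the endothelial genes, 3 of the 15 arterial and Notch genes were lower and 4 higher in Tumor against TdLN, with a median of 0.01. This scale called 8.17% of all genes lower and 75% higher. Of the 5 venous genes 2 were then lower, with Flrt2 at -0.58 (adjusted p = 0.0251), and 1, Nrp2, was higher (1.79, adjusted p = 2.12e-06), while Ephb4 was at -0.18 (adjusted p = 0.558). The other lower gene, Tek (-0.54, adjusted p = 0.00127), is itself among the endothelial genes that make up this scale.

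For each factor the 3 genes of most similar profile were sought among 9601 tested genes (9602 for Sox17) by the root mean square difference of centred log2 CPM over the 15 libraries. Prox1 was nearest to Zfp521, Arrdc3 and Kdr, at 0.17, 0.19 and 0.19 log2 units, where Prox1 itself spread by 1.28. Zfp521 was at 33.1 ± 7.78 CPM in Tumor, 171 ± 25.6 in TdLN and 221 ± 22.1 in NdLN libraries. Sox7 was nearest to Cnst (0.20), Tob2 and Cfap43, and Cnst was also lower in TdLN than in NdLN libraries (-0.90 ± 0.17, adjusted p = 0.00970). Sox18 was nearest to Rras (0.15), Msl1 and Sbf2, and Rras had its lowest node value, 94.6 CPM, in TdLN 3 as Sox18 did.

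Nr2f2 was nearest to Cd2bp2 (0.17), Ipo11 and Slc43a3, and Slc43a3 was called higher in TdLN than in NdLN libraries (0.36 ± 0.09, adjusted p = 0.0451). Hhex was nearest to Slc27a3 (0.25), Tbl1xr1 and Sgms1. Tbx1 was nearest to Tmem158, at 0.47 log2 units beside a spread of 2.08, then Jund (0.77) and Grasp (0.78), whose transcripts are 63.8%, 67.2% and 62% G or C. Sox17 had no near gene, with Cdkn1c, Mmp17 and Lats2 at 0.97 to 0.98 beside a spread of 1.78, and 1 of the 3 held with a prior count of 0.5. Genes that share a difference between groups come out alike by this measure, which says nothing of shared function or control.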

How the data were processed

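Per the labels' protocols, cDNA was made and amplified from RNA of sorted cells with a low-input kit, of a kind that does not mark strand. The authors deposited 1 table of raw counts per gene; per the submitters' processing notes the tools were CASAVA 1.8.2, STAR 2.4 and featureCounts 1.4.6 with GRCm38, with neither annotation release nor strand setting given in the sources used here. Of 21839 gene IDs, 21628 matched GENCODE M21, and the other 211 held 0.0859% of counts. Columns were mapped to groups by their titles, and none was left out.

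Counts of all 15 libraries (23830337 to 37437282 each) entered 1 fit in edgeR 4.0.16 (R 4.3.3): filterByExpr, TMM, a robust quasi-likelihood fit and test, Benjamini-Hochberg adjustment over 13887 genes and a threshold of 0.05 on the adjusted p. Intervals and floors cover counting error only. DESeq2 1.42.0, limma 3.58.1 voom, other scalings and filters, fits of 2 groups and fits without single libraries were alternatives; scaling to the geometric mean of the endothelial genes and a loess offset (span 0.3) on the GC content of the longest transcript (known for 13855 genes) were chosen after seeing the data. Figures were drawn with matplotlib 3.10.9.

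The 7 factors, the lists and the markers were chosen with earlier results of these data known. Named besides the 7 are, of each list of other genes, up to 4 members of smallest adjusted p in Tumor against TdLN and those called between the nodes. The 3 genes of nearest profile (average log2 CPM of at least 3, prior count 2) and the sort genes are named too. Nr2f1, Flt4, Notch4, Tek, Stab2 and Ccl21a were named after their values were seen. No library repeats another: over 30 pairs within a group, the chi-square per gene averaged 28.5 or more. Libraries of a group correlated at 0.937 to 0.978 on the log scale. The sequencing pool of each library is not among the labels, so its part was not tested. Some genes of these lists are not reported here.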

Additional observations from a re-analysis of the deposited data

Results flagged for a closer look

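In 7 of the 21 sets of 5 libraries (7 factors in 3 groups), the highest or lowest library stood apart in CPM from the other 4. The gap exceeded Dixon's 95% limit of 0.71 of the range. Chance gives about 1 set in 20 only for independent sets of normal values. These sets share the same 15 libraries and skewed CPM values can pass the limit more often, so the number flagged measures no excess over chance. Prox1 was at 674 CPM in NdLN 1, below the nearest NdLN library at 772 CPM. Sox7 was at 43.4 CPM in Tumor 1, below the nearest Tumor library at 68.6 CPM. Sox17 was at 6.55 CPM in NdLN 2, above the nearest NdLN library at 2.06 CPM. Sox18 was at 118 CPM in TdLN 3, below the nearest TdLN library at 268 CPM. Nr2f2 was at 83.1 CPM in NdLN 2, above the nearest NdLN library at 75.9 CPM. Tbx1 was at 110 CPM in NdLN 2, above the nearest NdLN library at 31.3 CPM. Hhex was at 58 CPM in TdLN 3, below the nearest TdLN library at 119 CPM. NdLN 2 accounts for 3 of the 7 sets and TdLN 3 for 2 of them.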

How the results depend on the processing

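Of 249 fold changes of the 7 factors under other settings, 214 kept direction and side of the threshold, 11 lost their call, 9 gained one and 15 turned. Of 210 without 1 library, 195 kept both, 12 lost their call and 3 turned. Every change below is one whose cause was not tested, except that scaling to endothelial genes by construction sets their sum equal in all libraries. Precision is limited by 5 libraries a group and, for Sox17, by counts as low as 0.

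With the sum of the endothelial genes as scale, 2 factors were called higher and 1 lower in Tumor against TdLN, with Sox7 at 0.68, Sox18 at 0.85, Nr2f2 at 0.14, Tbx1 at 0.13 and Hhex at -0.35 (adjusted p = 0.0963). Of all genes 75% were called higher and 8.17% lower there. In Tumor against NdLN 2 were higher and 2 lower, with Sox7 at -0.14, Sox17 at -0.61, Sox18 at 1.09 and Nr2f2 at 0.78, beside 77.1% and 7.94% of all genes. In TdLN against NdLN 1 was higher (3.14% of all genes were), with Sox18 at 0.24 and Nr2f2 at 0.64. With the geometric mean of the endothelial genes as scale, 2 were higher and 1 lower in Tumor against TdLN, with Sox7 at 0.65, Sox18 at 0.82, Nr2f2 at 0.14, Tbx1 at 0.11 and Hhex at -0.37, beside 74.2% and 8.22% of all genes. Then 2 were higher and 1 lower in Tumor against NdLN, with Sox7 at -0.046, Sox17 at -0.57, Sox18 at 1.18, Nr2f2 at 0.89 and Hhex at -0.40, beside 78.1% and 7.41% of all genes. In TdLN against NdLN that scale called 858 genes, 1 factor among them higher, with Sox18 at 0.36 and Nr2f2 at 0.76.

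In TdLN against NdLN, where edgeR called 484 genes, DESeq2 called 986, with 1 factor higher and 2 lower (Prox1 -0.51, Nr2f2 0.38). Voom called 817, with 1 higher and 2 lower (Prox1 -0.52, Nr2f2 0.41) and Sox18 at 0.031. Fits of the 2 groups alone called 1 factor higher and 2 lower there (Prox1 -0.50, Nr2f2 0.40) and put Sox18 at -0.59 (adjusted p = 0.0531) in Tumor against TdLN. A filter at 10 CPM in 5 libraries called 1 factor higher (Nr2f2 0.39) and left Sox17 without a value. With no filter Sox17 in Tumor against NdLN was at -2.28 (adjusted p = 0.0516).

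Without single libraries, Sox17 in Tumor against NdLN ran between -2.72 and -1.64, Sox18 between -0.70 and -0.51 and Tbx1 between -0.041 and 1.61. Sox18 ran between -0.79 and -0.49 in Tumor against TdLN and between -0.13 and 0.16 in TdLN against NdLN. Factors called lower ran between 4 and 6 in Tumor against NdLN and between 4 and 5 in Tumor against TdLN, and all genes called in TdLN against NdLN between 225 (without TdLN 1) and 564 (without TdLN 4).

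Whether libraries of the same replicate number share a mouse is not stated. In deviations from group means, 15 same-numbered pairs correlated at -0.21 to 0.248, 4 of them over 0.1, and 3 libraries correlated best with their own number. These correlations cannot decide the question, because other differences between libraries could hide a shared mouse. With the replicate block Sox17 in Tumor against NdLN was at -2.34 (adjusted p = 0.0796), and at -2.34 (adjusted p = 0.0736) with the block and the GC offset; no other call of the 7 factors changed under the block.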
